A study of Homo sapiens with 8 samples.

Results

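NR3C1 encodes the glucocorticoid receptor, the protein through which dexamethasone acts. It was followed here through the 5 array probe sets annotated to NR3C1 and to no other gene, out of 41091 probe sets with 1 gene and 54675 in all. Messenger RNA had been measured after 48 h of treatment in CUTLL1, an established human cell line of the T lineage that depends on active NOTCH1. The groups were PF-03084014 plus dexamethasone at 1 microM each (the combination), 1 microM PF-03084014, 1 microM dexamethasone, and DMSO vehicle, with 2 arrays each. PF-03084014 inhibits gamma-secretase, the protease that frees the active fragment of NOTCH receptors. Dexamethasone is a glucocorticoid drug and a ligand of the receptor. All groups are the same cell line, so the values describe 1 line. The labels number the arrays of a group as replicas and do not say whether separate cultures were used, and a p-value here reflects only how far these samples spread, which may be technical.

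Without hormone the receptor sits in the cytoplasm in a complex with HSP90 and its cochaperones. On binding a glucocorticoid it enters the nucleus and acts as a transcription factor, and in lymphoid cells this can end in apoptosis. One of the genes it can control is its own. In many cell types glucocorticoids lower NR3C1 mRNA, whereas in T-lymphoid leukemia cells that respond to the hormone they can raise it, which is called autoinduction. The NOTCH target HES1, a transcriptional repressor, has been reported to repress NR3C1 in NOTCH1-driven leukemia, so NR3C1 lies where the pathways hit by the 2 compounds meet.

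NR3C1 has several alternative first exons, each with its own promoter. RefSeq (GRCh38.p14) lists 7 start windows for it on the minus strand of chromosome 5, 2 in a distal cluster and 5 in a proximal cluster 29454 bases downstream. The 250 bases before the outermost start of each cluster are shown because they differ in base composition, with a GC box (GGGCGG) and a CCAAT box (CCAAT), each on either strand, in capitals.
Distal cluster, chr5:143435513-143435762, minus strand: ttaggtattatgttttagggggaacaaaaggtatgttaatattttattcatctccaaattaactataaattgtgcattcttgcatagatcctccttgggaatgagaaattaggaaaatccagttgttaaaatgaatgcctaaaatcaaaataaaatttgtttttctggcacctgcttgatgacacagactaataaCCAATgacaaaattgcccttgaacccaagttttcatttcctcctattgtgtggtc
Proximal cluster, chr5:143405356-143405605, minus strand: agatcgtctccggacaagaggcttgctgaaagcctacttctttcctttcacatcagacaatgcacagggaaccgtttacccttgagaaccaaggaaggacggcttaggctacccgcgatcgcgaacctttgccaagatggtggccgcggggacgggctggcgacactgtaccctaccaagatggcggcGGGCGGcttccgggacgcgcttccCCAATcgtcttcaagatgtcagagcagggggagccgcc
The distal window holds 32.8% G and C and 0 CpG pairs, and the proximal one 59.6% and 20. A GC box lies in 5 of the 7 NR3C1 windows, against 42.6% of 35116 windows of the same length over all genes, and a CCAAT box in 3 of 7, against 32%.

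Repressors of the HES family bind N boxes (CACNAG) and class C sites (CACGNG). The N box was found on neither strand of any of the 7 windows, against 32% of all windows. The class C letters were found in 3 of 7, against 26.7%, and all 3 matches read CACGCG, so none is the E box CACGTG that the same search would also find. These 3 matches are shown with 12 bases on each side, the match in capitals.
Class C match 1, chr5:143404382-143404411, minus strand: gggacctgccggCACGCGactccccccggg
Class C match 2, chr5:143403700-143403729, minus strand: gtggagtgggagCGCGTGtgtgcgagtgtg
Class C match 3, chr5:143403448-143403477, minus strand: accgggacggggCACGCGcgcccggaacct
The half-site of a glucocorticoid response element (AGAACA, both strands) lay in 0 of 7 windows, against 12.4% of all. These matches describe letters only. The arrays read no binding, and the probe sets were not assigned to a start.

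The deposited values are linear intensities, 1 per probe set, analysed as log2 with values below 16 set to 16. Combination replicate 2 had a median intensity of 76.3 and the other 7 arrays 61.8 to 63.9. The log2 difference between replicates had an SD over all probe sets of 0.56 in the combination, against 0.36 to 0.37 in the other groups. The ratio of the 3 prime to the 5 prime control probe set, a sign of RNA integrity, was 0.93 to 1.04 for GAPDH and 1.82 to 2.27 for actin. The T lineage label held: 11 of 11 T lineage markers read at least 100 on every array, while 3 of 6 B lineage markers, 3 of 5 myeloid markers, 3 of 4 erythroid and megakaryocyte markers and 4 of 7 epithelial and stromal markers stayed below 100 on all arrays. The B markers CD79A and CD22 and the myeloid marker ITGAM read above 100 throughout, and CD14 stayed at 4.62 to 19.4. Summed B lineage intensity was 1031 to 1471 in the combination, 908 to 958 with PF-03084014, 947 to 968 with dexamethasone and 831 to 861 in DMSO. Summed myeloid intensity ran the other way, at 319 to 381 in the combination, 469 to 536 with PF-03084014, 400 to 443 with dexamethasone and 528 to 574 in DMSO. The part of either in the results was not tested.

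NR3C1 was read well above the floor by all 5 probe sets and was highest in the combination in each. The brightest, 201865_x_at, had intensities of 6631 and 6413 in the combination, 3430 and 3555 with PF-03084014, 3947 and 3906 with dexamethasone, and 2932 and 3384 in DMSO. The combination arrays stood far above the other 6, whose highest value was 3947. Probe set 211671_s_at repeated this pattern at 6081 and 6113 in the combination, 3294 and 3315 with PF-03084014, 3632 and 3738 with dexamethasone, and 2741 and 3205 in DMSO. Probe set 216321_s_at read 5793 and 6466 in the combination, 2966 and 3160 with PF-03084014, 3776 and 3775 with dexamethasone, and 2597 and 3151 in DMSO. In these sets DMSO replicate 1 was the lowest array.

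The dimmer probe sets gave the same order of group means. Probe set 201866_s_at read 1322 and 1205 in the combination, 561 and 589 with PF-03084014, 710 and 712 with dexamethasone, and 392 and 581 in DMSO. The dimmest, 232431_at, read 327 and 317 in the combination, 134 and 160 with PF-03084014, 205 and 155 with dexamethasone, and 125 and 169 in DMSO. Only in this last set did a dexamethasone array fall among the DMSO arrays. The suffix _x_at marks probes that can cross-hybridise and _s_at probes shared by several transcripts, so the sets are not independent measurements, and receptor isoforms were not told apart.

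**Figure D1:**
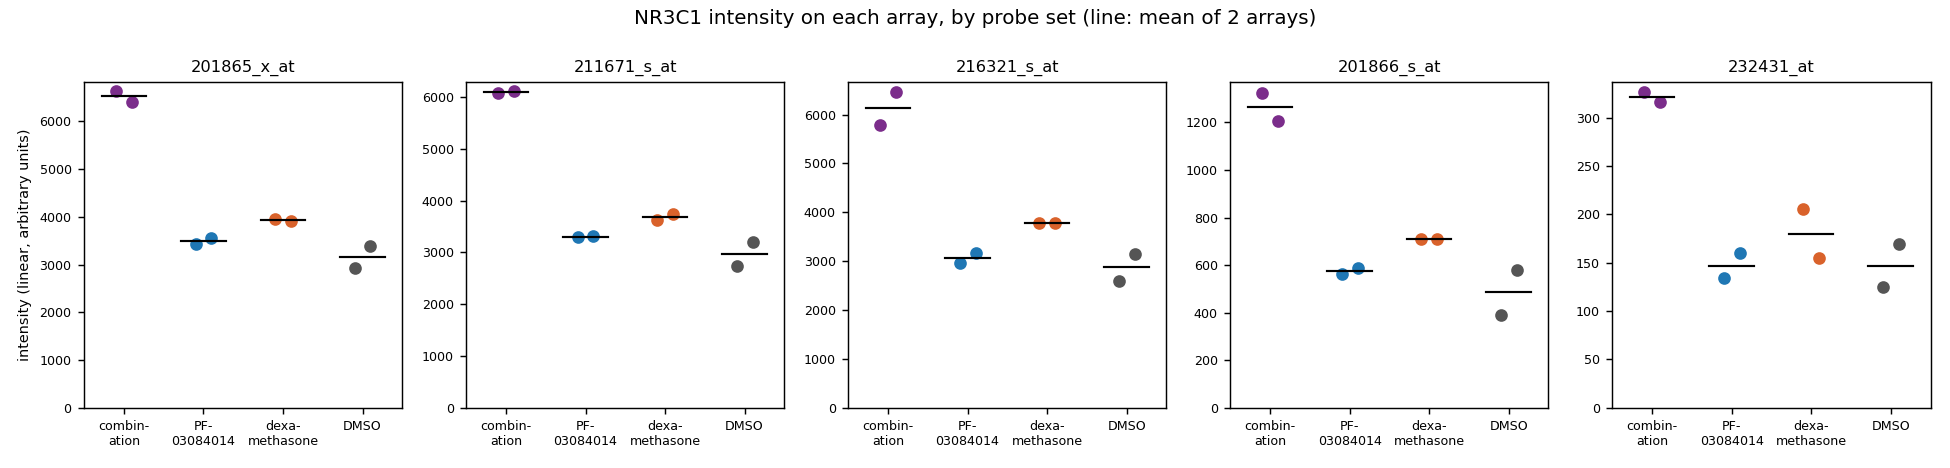
Intensity of NR3C1 (vertical axes, linear, from 0) on each array in the 4 groups, 1 panel per probe set, with points for arrays and a line at the mean of 2. The combination arrays lie above all others in every panel, for example 6413 and 6631 against at most 3947 in the first.

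RNA was pooled over the cells of a culture, so a change in RNA per cell and a change in the mix of cells cannot be told apart. By group mean, all 5 probe sets ranked the combination first, then dexamethasone, PF-03084014 and DMSO. The combination lay above dexamethasone by 0.70 to 0.85 log2 units, with the arrays apart in 5 of 5 sets, against 23.8% of all. Dexamethasone lay above PF-03084014 by 0.16 to 0.31, with the arrays apart in 4 of 5 sets. This neighbouring pair was not tested, and the share of all probe sets apart in it is not given here. PF-03084014 lay above DMSO by 0.011 to 0.27, with the arrays apart in only 2 of 5 sets, against 22.8% of all. In each of the 5 sets the DMSO arrays differed from each other by more than that set's PF-03084014 difference. DMSO replicate 2 was higher in 5 of 5, by 0.21 to 0.57.

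The first question was whether dexamethasone alone raised the mRNA of its own receptor. The 5 probe sets stood 0.29 to 0.57 log2 units above DMSO, or 1.22- to 1.49-fold, and limma called 0 of 5 at a Benjamini-Hochberg adjusted p under 0.05 over all 41091 probe sets, where 0.0365% were called higher and 0.0122% lower. The brightest set averaged 3926 ± 29.2 in dexamethasone and 3158 ± 320 in DMSO (mean intensity ± SD, n = 2 each). Its log2 change was 0.32 ± 0.073 (estimate ± SE, limma adjusted p = 0.364), with a 95% interval of 0.13 to 0.50. The arrays of the groups did not overlap in 4 of 5 sets, against 21.4% of all probe sets. Before adjustment 4 of 5 sets had p under 0.05, the lowest being 0.00702, and the share of all probe sets at that threshold is not given here. By size, 2.79% to 11.5% of all probe sets had a larger rise than these sets. The size depended on the vehicle array: the brightest set stood at 0.21 without DMSO replicate 1 and at 0.42 without DMSO replicate 2. The word autoinduction in the name given to this group of probe sets thus described a difference that was not called for dexamethasone alone.

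The next comparison asked whether NOTCH inhibition alone altered NR3C1. PF-03084014 arrays averaged 3493 ± 88.4 and DMSO arrays 3158 ± 320 in the brightest set (mean intensity ± SD, n = 2 each), a log2 change of 0.15 ± 0.073 (limma adjusted p = 0.571). The 5 sets stood at 0.011 to 0.27, and limma called 0 of 5, against 0.2% of all probe sets called higher. At an unadjusted p under 0.05 the count was also 0. The arrays were apart in 2 of 5 sets, against 22.8% of all. In 216321_s_at, 201866_s_at and 232431_at the sign was negative without DMSO replicate 1. The 95% interval of the brightest set ran between -0.038 and 0.34.

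With both compounds NR3C1 rose in every probe set. The brightest averaged 6522 ± 154 in the combination and 3158 ± 320 in DMSO (mean intensity ± SD, n = 2 each), a log2 change of 1.05 ± 0.073, or 2.07-fold (limma adjusted p = 0.00543). All 5 sets were called higher, against 3.97% of all probe sets (3.98% were called lower), with changes of 1.04 to 1.40, or 2.06- to 2.64-fold. The largest was 201866_s_at at 1.40 ± 0.19 (adjusted p = 0.0185), and the weakest call was 232431_at at 1.14 ± 0.22 (adjusted p = 0.0426). The arrays were apart in 5 of 5 sets, against 24.7% of all. The brightest set stayed called with any 1 array left out, at 0.95 to 1.15, while the count was 3 of 5 without either PF-03084014 array, either dexamethasone array or combination replicate 2, and 232431_at lost its call without any 1 of the 8 arrays. When the fit held only these 2 groups, 0 of 5 were called and the brightest had an adjusted p of 0.121 at an unaltered 1.05, but that fit called 0 of all 41091 probe sets.

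The combination was also set against each compound alone. Against dexamethasone, which asks what adding PF-03084014 did, 3 of 5 sets were called higher (1.64% of all), with the brightest at 0.73 ± 0.073, or 1.66-fold (limma adjusted p = 0.0195). It averaged 6522 ± 154 in the combination and 3926 ± 29.2 in dexamethasone (mean intensity ± SD, n = 2 each). The uncalled sets, 201866_s_at and 232431_at, stood at 0.83 ± 0.19 (adjusted p = 0.0839) and 0.85 ± 0.22 (adjusted p = 0.107). The arrays did not overlap in any of the 5, against 23.8% of all probe sets apart in this direction. Without either PF-03084014 array, either dexamethasone array or combination replicate 2 the count was 0 of 5, with the brightest at 0.72 to 0.76. Calls over all probe sets were fewer in these fits too, at 151 to 273 without a PF-03084014 or dexamethasone array and 1110 without combination replicate 2, against 1580 with all arrays.

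Against PF-03084014, which asks what adding dexamethasone did once NOTCH cleavage was blocked, 3 of 5 sets were called higher (0.569% of all). The brightest averaged 6522 ± 154 in the combination and 3493 ± 88.4 in PF-03084014 (mean intensity ± SD, n = 2 each), a change of 0.90 ± 0.073, or 1.87-fold (limma adjusted p = 0.0208). The 5 changes ran between 0.88 and 1.14, and the arrays were apart in 5 of 5 sets, against 20.2% of all. The count was 0 of 5 without either PF-03084014 array or either dexamethasone array and 1 of 5 without combination replicate 2, while calls over all probe sets were 11 to 172 and 668, against 574 with all arrays. In the fit with the replicate number as a block it was 1 of 5, with the brightest at adjusted p = 0.0550.

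**Figure D2:**
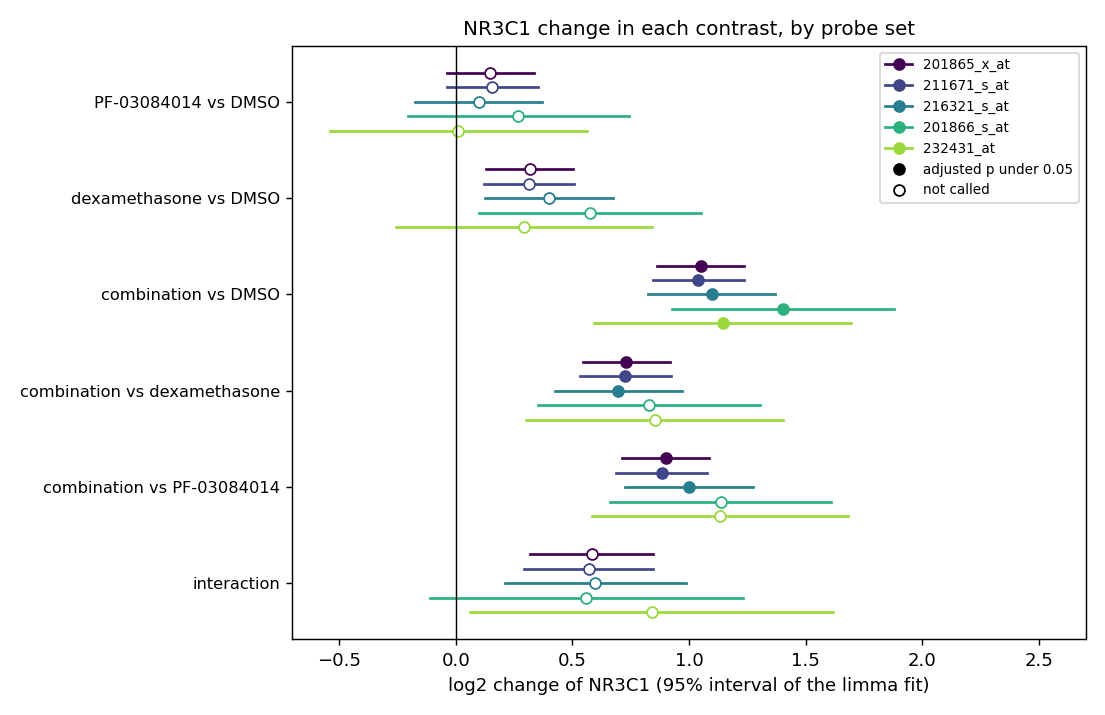
Log2 change of NR3C1 (horizontal axis) in the 6 contrasts, with a point per probe set and its 95% interval from the limma fit, filled where called. All points lie right of 0, and the filled ones are 5 for the combination against DMSO and 3 each for the combination against either compound.

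The brightest set stood 0.90 log2 units higher with dexamethasone in the presence of PF-03084014, which was called, and 0.32 higher in its absence, which was not. The difference between these, the interaction of the compounds, was 0.58 ± 0.10 with a 95% interval of 0.32 to 0.85, and it was not called (limma adjusted p = 0.354, unadjusted p = 0.00225). Over the 5 sets it ran between 0.56 and 0.84, and 0 of 5 were called. After adjustment 0.00243% of all probe sets were called higher. Before adjustment 4 of 5 had p under 0.05, and the share of all probe sets at that threshold is not given here. By size, 4.84% to 11.6% of all probe sets had a larger positive interaction than these sets. Both single-compound changes are taken against the same DMSO arrays. Their sum was 0.47 in the brightest set, against 1.05 observed with both, and 0.30 against 1.14 in 232431_at. In intensity, adding the log2 changes gives 4353 for the brightest set, while the lower combination array read 6413. Depending on the array left out, the interaction of the brightest set lay between 0.48 and 0.69, and it was 0.43 when arrays were shifted to 1 median. That shift moved the median interaction over all probe sets to -0.13.

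**Figure D3:**
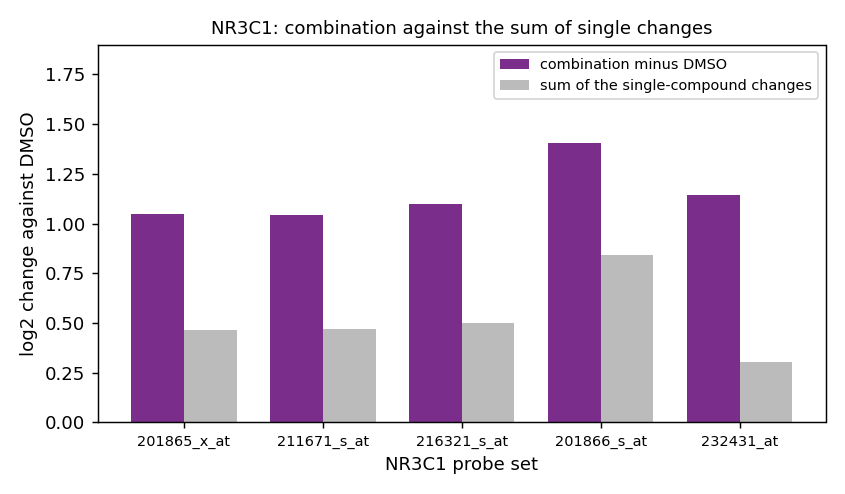
Log2 change against DMSO (vertical axis, from 0) of each NR3C1 probe set in the combination (left bar) and the sum of its changes with PF-03084014 alone and dexamethasone alone (right bar). The combination bar is the taller in all 5 sets, by 0.56 to 0.84.

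HES1, the repressor that has been linked to NR3C1, was low on the 4 arrays with PF-03084014 and lowest on the combination arrays. Its brightest probe set read 309 and 246 in the combination, 424 and 342 with PF-03084014, 1346 and 1236 with dexamethasone, and 1242 and 1296 in DMSO. With PF-03084014 it fell by 1.74 ± 0.15 in log2 units (limma adjusted p = 0.0330), with the combination it fell by 2.20 ± 0.15 (adjusted p = 0.0054), and with dexamethasone it stood at 0.024 ± 0.15 (adjusted p = 1). In the combination against PF-03084014 this set stood at -0.47 ± 0.15 (adjusted p = 0.235), and a second, dimmer HES1 probe set fell by 0.82 ± 0.096 (adjusted p = 0.0354). Both sets thus read lower in the combination than with PF-03084014, a difference called only in the dimmer set. On the PF-03084014 arrays HES1 was called lower and NR3C1 was not called, and on the combination arrays HES1 was called lower and NR3C1 higher. Whether the level of HES1 bears on that of NR3C1 was not tested.

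Of 12 factors reported at NR3C1 promoters, HES1 was the 1 that fell and FOS, an immediate early factor, the 1 that rose with PF-03084014, and 10 were not called. Over all genes 0.278% rose and 0.278% fell. With the combination HES1 fell, FOS (1.41 ± 0.093) and ETS1 (0.44 ± 0.083) rose, and 9 were not called, against 5.42% and 4.65% of genes. The median change of the 12 was 0.089, against 0.063 over all genes. With dexamethasone limma called 0 of 12, at a median of 0.0042 against 0.014, while 0.0556% of genes rose and 0.0253% fell. At an unadjusted p under 0.05 there were 2 of 12, and the share of all genes at that threshold is not given here. The factor with the smallest p with dexamethasone, SP1, a factor that binds GC boxes, stood at -0.22 ± 0.056 (limma adjusted p = 0.398). MYB, a factor reported to act with the receptor at NR3C1 in T cells, read 8999 and 8785 in the combination and 8193 and 7093 in DMSO, a change of 0.22 ± 0.074 that was not called (limma adjusted p = 0.150). A dimmer MYB probe set went the other way, at -0.41 ± 0.090, and was not called either (limma adjusted p = 0.0582). SPI1, a myeloid and B lineage factor, read 1 to 16.1, at or next to the floor of 16 on every array.

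**Figure D4:**
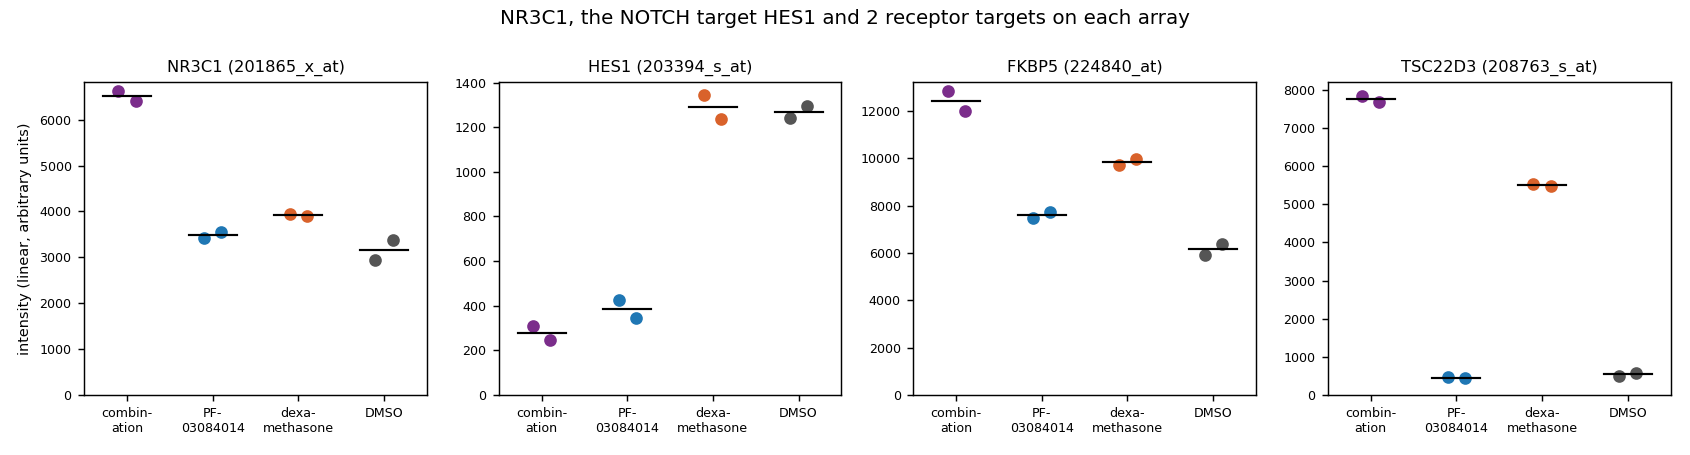
Intensity (vertical axes, linear, from 0) of NR3C1, HES1, FKBP5 and TSC22D3 by array in the 4 groups, with points for arrays and a line at the mean of 2. HES1 is low on the 4 arrays with PF-03084014, at 246 to 424, and TSC22D3 is high on the 4 with dexamethasone.

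Direct targets of the receptor can give a readout of its activity, but the median of this list was also above that of all genes with PF-03084014 alone. TSC22D3, the gene of the anti-inflammatory factor GILZ, read 7836 and 7697 in the combination, 475 and 430 with PF-03084014, 5526 and 5478 with dexamethasone, and 506 and 583 in DMSO. It was high on the arrays with dexamethasone and lay above the dexamethasone arrays by 0.50 ± 0.083 in the combination (limma adjusted p = 0.0468). Of 18 receptor targets, 5 rose with dexamethasone and 0 fell (median 0.31), where 0.0556% of genes rose and 0.0253% fell. With the combination 12 rose and 0 fell (median 0.68), where 5.42% of genes rose and 4.65% fell. In the combination against dexamethasone 8 rose and 0 fell, where 2.23% of genes rose and 2.91% fell. The median there was 0.41, against 0.040 over all genes. Against PF-03084014 the combination had 7 higher and 0 lower, where 0.738% of genes rose and 1.15% fell. With PF-03084014 alone 1 of the 18, DUSP1, rose and 0 fell, where 0.278% of genes rose and 0.278% fell. Before adjustment 11 of the 18 had a limma p under 0.05 there, in either direction. The share of all genes at that threshold is not given here. The median of the 18 with PF-03084014 alone was 0.25, against 0.018 over all genes. What part of the change in the combination reflects receptor activity was not tested. BCL2L11, which encodes the pro-apoptotic protein BIM, rose by 1.04 ± 0.067 with dexamethasone and by 2.23 ± 0.067 with the combination (limma adjusted p = 0.0456 and 0.00214), and PFKFB2, a regulator of glycolysis, by 3.41 ± 0.15 and 3.82 ± 0.15. The list holds genes known from earlier results to respond in these samples, so its direction is not independent evidence. Of 10 NOTCH targets, 6 fell and 0 rose with PF-03084014, where 0.278% of genes fell and 0.278% rose. With the combination 7 fell and 1 rose, IL7R, where 4.65% of genes fell and 5.42% rose. The Notch regulator gene NRARP fell by 2.66 ± 0.15 with PF-03084014, and HEY1, a repressor gene related to HES1, fell by 2.28 ± 0.14.

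Of 14 measured chaperones and cochaperones of the receptor, 1 rose and 2 fell with the combination, where 5.42% of all genes rose and 4.65% fell. FKBP5, a cochaperone that is itself a receptor target, rose by 1.01 ± 0.057 (limma adjusted p = 0.00393), with 12873 and 12018 in the combination and 5932 and 6398 in DMSO. FKBP4, the cochaperone that replaces FKBP5 in the active complex, fell by 0.99 ± 0.11 (adjusted p = 0.0130), and STIP1, which links HSP70 to HSP90, fell by 0.60 ± 0.092 (adjusted p = 0.0262). The other 11 were not called, with HSP90AA1 at -0.042 ± 0.065 and HSP90AB1 at -0.32 ± 0.11. The list median was -0.23. With dexamethasone alone 0 of 14 were called, FKBP5 at 0.68 ± 0.057 being nearest (limma adjusted p = 0.0734), and 1 of 14 had an unadjusted p under 0.05. With PF-03084014 alone limma called 0 of 14, and 3 had an unadjusted p under 0.05, FKBP4 standing at -0.57 ± 0.11 (limma adjusted p = 0.151). For neither compound is the share of all genes at that unadjusted threshold given here.

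Of 15 measured coactivators and remodelling subunits, which help the receptor open chromatin and start transcription, 6 rose with the combination and 0 fell, against 5.42% and 4.65% of genes, at a median of 0.13. They were the acetyltransferase genes CREBBP (0.80 ± 0.093) and KAT2B (0.76 ± 0.14), the p160 coactivator genes NCOA1 (0.65 ± 0.099) and NCOA2 (0.54 ± 0.090), and the remodelling subunits ARID1A and SMARCD1. CREBBP read 3213 and 3409 in the combination and 1839 and 1957 in DMSO. In the combination against dexamethasone 4 rose, CREBBP, NCOA1, NCOA2 and ARID1A, against 2.23% of genes. With either compound alone limma called 0 of 15, while 8 with PF-03084014 and 2 with dexamethasone had an unadjusted p under 0.05. The share of all genes at that unadjusted threshold is not given here, so these counts have no baseline.

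Of 6 measured corepressors limma called 0 in each of the 6 contrasts, with at most 1 at an unadjusted p under 0.05. The share of all genes at that unadjusted threshold is not given here. TBL1XR1, a corepressor subunit whose loss has been tied to glucocorticoid resistance, stood at 0.13 ± 0.041 with the combination (limma adjusted p = 0.138). Its dimmer probe sets ran from -0.72 to 0.17 in this contrast, and none was called. Of 11 measured genes of receptor turnover and modification, 1 rose and 0 fell with the combination, where 5.42% of all genes rose and 4.65% fell. This was GSK3B, a kinase that phosphorylates the receptor, at 0.56 ± 0.048 (limma adjusted p = 0.00734). It read 3430 and 3477 in the combination and 2318 and 2359 in DMSO. FBXW7, the ubiquitin ligase subunit that marks the receptor and NOTCH for degradation, stood at 0.24 ± 0.10 and CASP1, a protease that can cleave the receptor, at 0.072 ± 0.068, neither called.

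Genes with a profile most like that of NR3C1 were ranked by Pearson's r of log2 intensity over the 8 arrays, as a description over points that share the 4 groups. Among 3217 genes with a mean intensity of at least 100 and an SD of at least 0.25 log2 units, 155 had r of 0.9 or more and 237 had r of -0.9 or less, and the other NR3C1 probe sets had r of 0.963 to 0.998. The 10 highest, at 0.974 to 0.986, were STK11IP, STAP1, DENND1C, TSPAN5, SNTB2, UBASH3B, EOMES, PAXIP1, SLC7A6 and SMAD3. All 10 were called higher in the combination against DMSO by limma, where 5.42% of genes were. The choice by r on the same arrays makes such calls likely, since NR3C1 is itself highest there, so they are not a separate result. EOMES, a T-box factor of effector T cells and natural killer cells, had the widest range of the 10. It read 950 and 865 in the combination, 145 and 146 with PF-03084014, 270 and 276 with dexamethasone, and 132 and 123 in DMSO. Its change was 2.83 with the combination (limma adjusted p = 0.00150) and 1.10 with dexamethasone (adjusted p = 0.0472), and it was the 1 of the 10 called for dexamethasone.

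STK11IP, which binds the kinase STK11, had the highest r, with 522 and 501 in the combination, 289 and 305 with PF-03084014, 300.2 and 290 with dexamethasone, and 242 and 267 in DMSO. SMAD3, a mediator of TGF-beta signals, changed by 1.28 with the combination (limma adjusted p = 0.00709). The 5 lowest r, -0.992 to -0.980, belonged to FANCG, TEX19, MZT1, LONRF1 and RFC5. All were called lower with the combination, where 4.65% of genes were, which the choice by r likewise makes likely. FANCG, a member of the Fanconi anemia repair complex, read 941 and 992 in the combination, 1499 and 1506 with PF-03084014, 1383 and 1352 with dexamethasone, and 1671 and 1629 in DMSO.

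**Figure D5:**
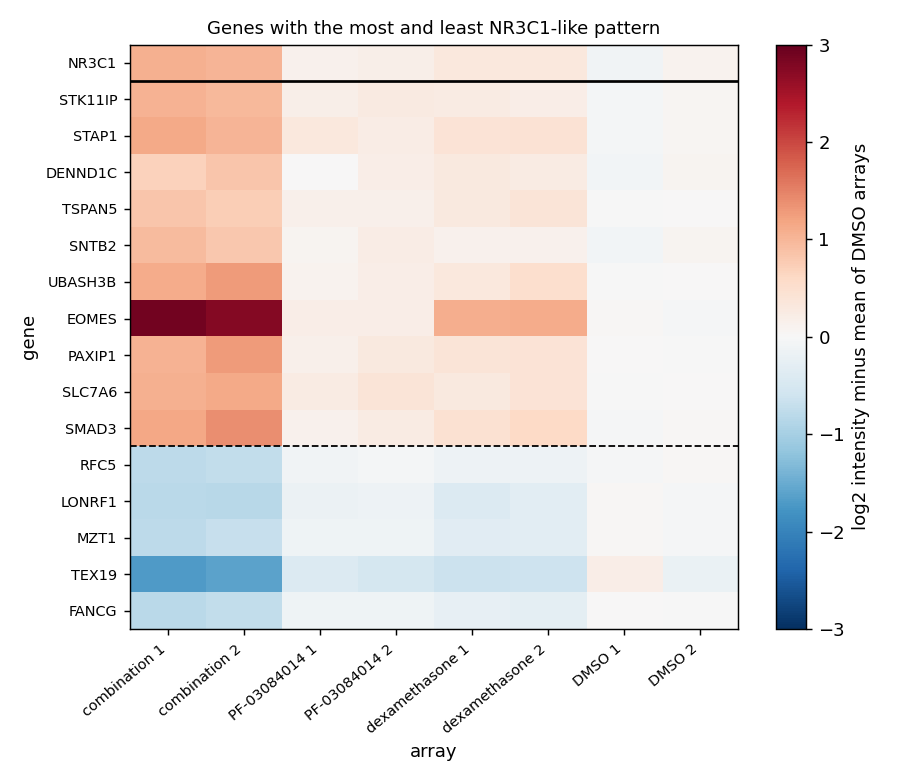
Log2 intensity minus the mean of the DMSO arrays (colour) for NR3C1, the 10 genes with the highest r (above the dashed line) and the 5 with the lowest, over the 8 arrays (columns). The combination columns stand out in every row, and EOMES reaches 2.83 on average.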

How the data were processed

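The authors deposited probe-set intensity values on a linear scale for 8 Affymetrix arrays. Per the labels' protocols, biotinylated cRNA was made with a kit that amplifies from the 3 prime end. How these were summarised, background-corrected and normalized is not given in the sources used here. Intensities below 16 were set to 16 and converted to log2. Probe sets with 1 gene in the platform annotation were fitted (41091 of 54675, 1801 listing several genes and 11777 none), of which 41037 matched a current RefSeq symbol. limma 3.58.1 in R 4.3.3 fitted a mean per group with an intensity trend (4 residual degrees of freedom), was tested on simulated data, and adjusted p-values (Benjamini-Hochberg, two-sided, threshold 0.05) over all probe sets. Other genes are given by their brightest probe set. The precision is limited by 2 arrays per group, the median standard error of a difference being 0.20. The members and the gene lists were chosen with earlier results of these data known. Named genes were all NR3C1 probe sets, up to 4 called members per list or else the one with the smallest p, HES1, MYB, NR3C2, FBXW7, TBL1XR1 and CASP1, and the 10 most and 5 least similar profiles. ARID1A, SMARCD1, IL7R, HSP90AA1, HSP90AB1 and SPI1 were named after their values were seen. The lists were promoter factors, chaperones, coactivators, corepressors, turnover, glucocorticoid metabolism and export, steroid receptor relatives, receptor targets and NOTCH targets. Some members of the lists are not analysed here. Alternatives were quantile normalization, a common median, floors of 32 and 64, a pseudocount of 16, a minimum mean of 100, 1 probe set per gene, no trend, array weights, each array left out, a replicate block, and only the groups compared. The fit as reported did not pair arrays by replicate number. Deviations of same-numbered arrays correlated at -0.0038 to 0.096, which cannot show whether they were handled together.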

Additional observations from a re-analysis of the deposited data

How the results depend on the processing

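No setting changed the direction of the brightest NR3C1 probe set in any contrast. Its change with the combination against DMSO lay between 0.92 and 1.05 over 11 settings and between 0.95 and 1.15 with an array left out, and it stayed called except with only the groups compared (1.05, adjusted p = 0.121). For the combination against dexamethasone the call ended with a common median (0.58, adjusted p = 0.118), array weights (0.73, 0.0673) and only the groups compared (0.73, 0.130), and the values with an array left out were 0.71 to 0.76. For the combination against PF-03084014 it ended with a common median (0.77, 0.110), array weights (0.90, 0.0722), only the groups compared (0.90, 0.202) and the replicate block (0.90, 0.0550), and the values with an array left out were 0.88 to 0.93. A common median, array weights and only the groups compared gave 3, 3 and 0 of 5 sets called against DMSO, and 0, 0 and 0 against either compound alone. Over all probe sets these settings called 1132, 1128 and 0 against DMSO, 275, 169 and 0 against dexamethasone, and 57, 38 and 0 against PF-03084014, where the fit as reported called 3268, 1580 and 574. A pseudocount of 16 or a minimum mean of 100 gave 5 of 5 called against dexamethasone and 5 of 5 against PF-03084014, and the replicate block gave 1 of 5 against PF-03084014. With an array left out the counts ran from 3 to 4 against DMSO, 0 to 4 against dexamethasone and 0 to 4 against PF-03084014. The cause was not tested, except that leaving out an array outside a contrast alters its error estimate and not the change itself.

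With PF-03084014 alone the brightest set stood at 0.045 to 0.25 with an array left out, and other sets turned negative: without DMSO replicate 1 they read -0.041 (216321_s_at), -0.017 (201866_s_at) and -0.21 (232431_at), and 232431_at read -0.12 without PF-03084014 replicate 2. The highest values of these sets, without DMSO replicate 2, were 0.24, 0.55 and 0.23. For each single compound and for the interaction 0 of 5 were called in all settings run. The 2 DMSO arrays of 201866_s_at and 232431_at differed by 0.57 and 0.44 log2 units, and 2 arrays per group limit the precision of all values.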

Other observations

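Lists that bear on the supply of active hormone or on relatives of the receptor held no call in any contrast by limma. Of 7 genes of glucocorticoid metabolism and export, the drug efflux pump gene ABCB1 came nearest in the combination, with 183 and 300 in the combination and 118 and 116 in DMSO (limma adjusted p = 0.0732). Combination replicate 2, the array with the highest median intensity, was the higher one, so no fold is given. The single compounds gave 141 and 149 with PF-03084014 and 148 and 139 with dexamethasone. At an unadjusted p under 0.05 there were 3 of the 7 genes in the combination against DMSO, and the share of all genes is not given here. Of the 4 measured steroid receptor relatives, NR3C2, the mineralocorticoid receptor gene, read 190 and 220 in the combination, 211 and 235 with PF-03084014, 167 and 175 with dexamethasone, and 205 and 187 in DMSO. Its change with the combination was 0.065 ± 0.12 (limma adjusted p = 0.791), against 1.05 for NR3C1.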
